A study of Homo sapiens with 12 samples.

Results

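The genes that encode the proteins of the cytosolic ribosome were followed in cells treated with carmofur, an inhibitor of acid ceramidase, the enzyme that breaks down ceramide to sphingosine. Members were chosen by symbol, as every protein-coding gene named RPL or RPS with a number, with the stalk genes RPLP0, RPLP1 and RPLP2 and RPSA added, and without paralogs ending in L or L1, mitochondrial ribosomal proteins, the RPS6K kinases and pseudogenes. This gave 78 genes among the 60107 gene identifiers of the count table, of which 46 encode proteins of the large subunit and its stalk and 32 encode proteins of the small subunit. The study asked which changes in expression accompany the effect of carmofur on cell migration. Cells labelled U251P and U251T were seeded, serum starved for 16 h, and then kept for 24 h in full medium, so that all 4 groups shared the starvation and the return of serum and growth factors. The labels place carmofur, or DMSO as the vehicle, in the final 24 h alone, whereas the study's methods place it in the starvation as well, at 5 µM. U251 is an established human glioblastoma line, and the labels do not say what P and T stand for. Each of the 4 groups held 3 libraries, 12 in all, made with the QuantSeq kit, which reads the 3′ end of each polyadenylated transcript. The study's methods state in general that experiments were done with biological replicates, and the labels do not say which cultures the libraries came from, so that the p-values measure the spread between these libraries.

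Ribosomal proteins assemble with ribosomal RNA into a small subunit, which holds the messenger RNA and decodes it, and a large subunit, which joins the amino acids and carries the exit tunnel and the acidic stalk that recruits elongation factors. Their mRNAs are among the most abundant in growing cells, and most begin with a run of pyrimidines at the 5′ end, the terminal oligopyrimidine (TOP) motif, through which mTOR signalling sets their translation. Their short, abundant mRNAs have also been copied back into the genome many times, so that nearly every member has processed pseudogenes, intronless copies scattered over other chromosomes.

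The libraries labelled U251T stood apart from those labelled U251P before any member was compared. Total counts were 3295045 to 6350873 in U251P and 383633 to 2817379 in U251T, and the genes of the mitochondrial genome took 19.5% to 26.2% of the counts in U251P but 0.354% to 0.881% in U251T. Of 10 astroglial and glioma markers, 8 reached 10 CPM (gene counts scaled to a common library total) in U251P and 6 in U251T, with summed levels of 4399 to 5388 CPM and 9300 to 15177 CPM. Most of these sums was VIM, at 2516 to 3252 CPM in U251P and 7046 to 13534 CPM in U251T. Within that list NES had 376 to 459 CPM in U251P and 0 to 2.61 CPM in U251T, SOX2 97.7 to 161 CPM and 0 to 1.03 CPM, GFAP 0 to 0.303 CPM and 20.9 to 83.0 CPM, and FN1 27.2 to 63.6 CPM and 345 to 865 CPM. S100B was low in U251P, at 0.945 to 3.38 CPM, and at 0 in U251T. The 6 fibroblast and pericyte markers summed to 19.4 to 24.2 CPM in U251P and to 1788 to 2458 CPM in U251T, and the 5 epithelial markers to 162 to 232 CPM and 5.32 to 17.7 CPM. Most of the fibroblast sum in U251T was COL1A1 (1282 to 1929 CPM) and COL1A2 (370 to 446 CPM), and LUM was at 0 in every library. Most of the epithelial sum in U251P was KRT18 (109 to 163 CPM) and KRT8 (47.5 to 67.1 CPM). CDH1 went the other way, at 0 in U251P and 0 to 9.99 CPM in U251T. Endothelial markers stayed below 1 CPM in sum in every library. The part of these differences in the results below was not tested. The origin of the reads in the libraries labelled U251T, including whether all of them came from human cells, was not tested either, and every U251T value and every difference between the lines below is subject to that limit.

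The motif that the members share lies at the transcription start, which the choice of genes did not use. In the RefSeq promoters of GRCh38.p14, 63 of the 78 members were matched by symbol, and 43 of them (68.3%) began with C followed by at least 4 further C or T bases on the coding strand. The same start was found in 1429 of all 35116 promoters (4.07%). Members were counted by a single promoter per symbol, while all promoters were counted without that reduction and with the members included. The first base was C in 74.6% of the matched members and in 14.7% of all promoters, and the run of C and T from the start had a median length of 7 bases in the members and 0 in all promoters. A match describes these letters and not a tested site. The windows below are shown for members on which the results turn, from 12 bases before the annotated start to 18 bases from it, with the unbroken run of C and T from the start in capitals. RPS6 lies at chr9:19380219-19380248 (minus strand), RPS19 at chr19:41860243-41860272 (plus strand), RPL26 at chr17:8383176-8383205 (minus strand), RPLP2 at chr11:809955-809984 (plus strand) and RPL10A at chr6:35468389-35468418 (plus strand).
RPS6: cggaagttggccCTCTTTTCCgtggcgcct
RPS19: aaccccgtcgttCCCTTTCCCCTggctggc
RPL26: cagcgtgtagttCTCTTCCCTTTTgcggcc
RPLP2: cgtcggcgccttCCTTTTCCTCCCTgtcgc
RPL10A: gcaagacatgctagtctcttttccggttag
The first 4 began with runs of 9, 11, 12 and 13 pyrimidines. RPL10A had no run at its annotated start, and its pyrimidine stretch lay a few bases further on.

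In vehicle-treated U251P cells the members held 7.32%, 6.66% and 6.41% of all gene counts (6.80% ± 0.466, SD, n = 3), and after carmofur 6.87%, 6.18% and 6.52% (6.53% ± 0.344, n = 3). The ranges of the groups overlapped. A QuantSeq read stands for a transcript end and does not scale with transcript length, so that CPM values need no correction for length. How reads that match several loci were counted is not given, so that the order below is of counts assigned to each gene. On the CPM scale 30 members lay above 1000 CPM, 45 between 100 and 1000 CPM and 3 below 100 CPM in U251P vehicle, with a median of 749 CPM. The mean of the most abundant member was 245.6 times that of the least abundant.

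RPS6, the small-subunit protein phosphorylated by the S6 kinases, was the most abundant member, with 3789, 3266 and 3338 CPM in the vehicle libraries and 3420, 3123 and 3377 CPM after carmofur. Its lowest library was above the highest of any other member, while the groups overlapped with each other. Also among the 5 most abundant members were RPL37A, a zinc-binding protein of the large subunit, with 2566, 2395 and 2292 CPM in vehicle, and RPS24, a small-subunit protein mutated in Diamond-Blackfan anaemia, with 2522, 2005 and 2290 CPM. These neighbours in the order overlapped. RPLP1, an acidic stalk protein and the fifth in the order, had 2102, 1996 and 1978 CPM and overlapped RPS24. The 5 most abundant members together took 18.8% of the member counts.

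At the other end, RPL17, a protein at the exit tunnel, had 14.4, 13.7 and 14.3 CPM in U251P vehicle and 12.4, 13.3 and 15.0 CPM after carmofur. RPS26, which lies at the mRNA exit channel, had 87.3, 87.1 and 62.1 CPM, and RPL29 had 102.7, 98.3 and 90.6 CPM, so that RPS26 lay just below RPL29 and RPL17 stood alone. RPS3A, a small-subunit protein at the mRNA exit side, had 142.2, 115.3 and 120.6 CPM, all above RPL29. The proteins of an assembled ribosome are present in equal number, apart from the stalk proteins, and these levels are of transcript ends assigned to 1 gene and not of protein. RPL17 was also the member with the largest share of U251P counts on its pseudogenes, with 326 counts on pseudogenes and 413 on the gene over the 6 libraries (44.1%). In U251P 76 of the 78 members had less than 10% on pseudogenes. Besides RPL17, the largest shares were those of RPL36A (10.8%), RPS3A (6.73%), RPL21 (5.61%) and RPS2 (5.42%).

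No member passed the test of carmofur against vehicle in U251P. The test was the quasi-likelihood test of edgeR with Benjamini-Hochberg adjustment over all 11426 genes tested, called at an adjusted p under 0.05, and all 78 members entered it. The background was 0%, since 0 of the 11426 genes were called. At an unadjusted p under 0.05 there were 0 members and 402 genes (3.52%), and DESeq2 also called 0 members. The log2 fold changes of the members ran from -0.15 to 0.11 with a median of -0.03, against a median of 0.00 over all genes. Of the members 53 lay below 0 and 25 above, where 50.1% of all genes tested lay below 0. Without single libraries the median ran from -0.06 to 0.02. Its sign turned with a single library: 58 of the 78 members were highest in vehicle replicate 1 among the vehicle libraries (32.0% of all genes were), and without that library the median of the members was 0.02.

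RPL10A, a large-subunit protein of the L1 stalk, had the smallest p-value, with 684, 647 and 589 CPM in vehicle and 602, 529 and 566 CPM after carmofur. A single carmofur library lay above the lowest vehicle library on this scale, and after normalization there was no overlap between the groups. The fitted log2 fold change was -0.15 (SE 0.0914, adjusted p = 0.999, edgeR). RPL37A, RPL10 and RPL7 were the other members whose normalized groups did not overlap, all lower after carmofur. That makes 4 members lower and 0 higher, where 8.29% of all genes did not overlap (4.33% lower and 3.96% higher). RPL41, the smallest ribosomal protein, had a log2 fold change of -0.15 (SE 0.105), RPL12, a protein at the base of the stalk, -0.14 (SE 0.0932) and RPL3, which reaches towards the peptidyl transferase centre, -0.14. The largest positive values were those of RPL30 (0.11, SE 0.119), RPL29 (0.11, SE 0.106) and RPSA (0.10, SE 0.102), the last a small-subunit protein also known as the laminin receptor. The adjusted p was 0.999 for each of these genes.

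RPL5 and RPL11, which bind MDM2 and so link ribosome assembly to p53, did not pass the test either. RPL5 had 1427, 1234 and 1324 CPM in U251P vehicle and 1332, 1246 and 1287 CPM after carmofur, and RPL11 had 1150, 1002 and 1026 CPM against 1100, 999 and 1033 CPM. The carmofur values of RPL5 lay inside the range of its vehicle values. RPS27A, which is made as a fusion with ubiquitin, varied from 1446 to 1973 CPM in vehicle and from 1453 to 1879 CPM after carmofur. RPS14 (1206 to 1288 CPM in vehicle), RPS19 (1057 to 1179 CPM), RPS3 (1080 to 1130 CPM), RPS4X (697 to 785 CPM) and RPLP0 (1205 to 1419 CPM) also overlapped between the groups.

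The members were reproducible in U251P, with a median coefficient of variation of 8.47% in vehicle and 6.95% in carmofur libraries. It exceeded 20% in vehicle for 3 members, among them RPS15A (26.9%) and RPS7 (26.5%), both lowest in vehicle replicate 3. RPS7 had 526, 417 and 305 CPM there. In both U251P groups 24 members (30.8%) were lowest in replicate 3, as were 16.1% of all genes.

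**Figure D1:**
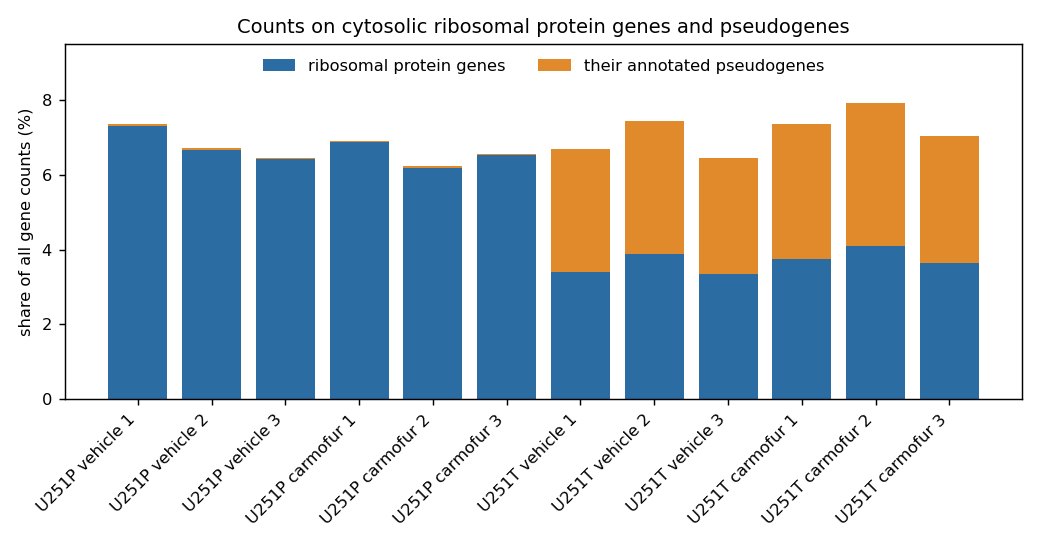
Stacked bars give the share of all gene counts (%) held by the 78 ribosomal protein genes (blue) and by their annotated pseudogenes (orange) in each of the 12 libraries. Pseudogenes held 0.0453% to 0.0496% in U251P and 3.12% to 3.83% in U251T, and the summed bars of the lines overlap.

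In the U251T libraries, members held a smaller share of the counts than in U251P, and their pseudogenes held a larger one. The member share was 3.54% ± 0.288 (SD, n = 3) in vehicle, with 3.41%, 3.87% and 3.34%, and 3.83% ± 0.233 (n = 3) after carmofur, with 3.76%, 4.09% and 3.64%. Every U251T library lay below every U251P library. The 1585 annotated pseudogenes of the members, named as a member symbol followed by P and a number, held 3.12% to 3.83% of the counts in U251T and 0.0453% to 0.0496% in U251P. Summed over genes and pseudogenes, the family held 6.71% ± 0.395 (n = 6) in U251P and 7.15% ± 0.535 (n = 6) in U251T, and the ranges overlapped. With the genes of the mitochondrial genome left out of the total the same sums were 8.44% to 9.15% in U251P and 6.49% to 7.96% in U251T, and the ranges no longer overlapped. That total was chosen after seeing the data. Pseudogenes made up 48.0% to 49.0% of that sum in every U251T library, in vehicle and carmofur alike, and 0.624% to 0.755% in U251P. The sources used here do not say how reads that match several loci were counted.

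The share on pseudogenes was very uneven among the members in U251T. Over the 6 libraries its median was 51.3%, it was 90% or more in 16 members, and it was under 10% in 15 members. RPL39, a small protein in the wall of the exit tunnel, had 8 counts on the gene and 1711 on its pseudogenes (99.5%), while in U251P it had 6987 and 18. RPL7A (99.5%), RPSA (99.3%), RPL17 (98.7%) and RPS15A (98.1%) followed. RPLP2, the other acidic stalk protein, RPS9 and RPS16 had 0 counts on pseudogenes in U251T. In U251P the median share was 0.417%.

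**Figure D2:**
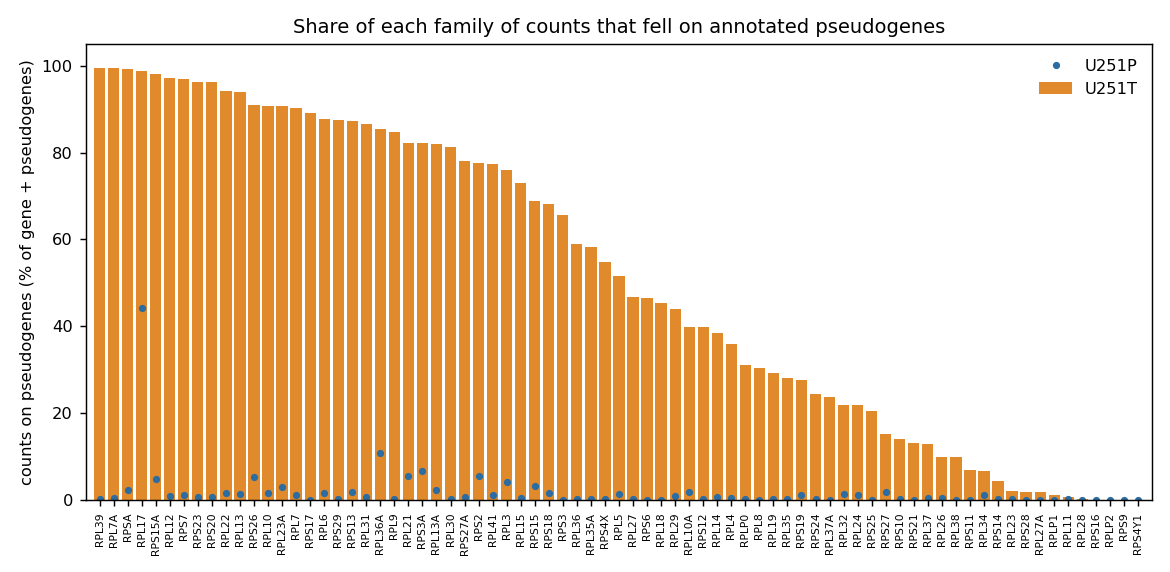
For 75 members, the share (%) of the summed gene and pseudogene counts that fell on annotated pseudogenes, in the 6 U251T libraries (bars) and the 6 U251P libraries (points). In U251T the bars run from 99.5% for RPL39 down to 0, while in U251P RPL17 (44.1%) and RPL36A (10.8%) are the points above 10%.

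The pseudogenes with most counts in U251T were compared with their parent genes. For 66 members the pseudogene with most U251T counts was aligned to the coding sequence, and over the 60 pairs aligned along 90% or more of the coding bases the identity was 83.2% to 100%, with a median of 93.7%. The following pairs are shown because RPL41P2 and RPL10P15 had the most U251T counts of all the pseudogenes, RPL39 had the largest share on pseudogenes, and RPS19 carries the carmofur result below. They are given as the coding strand from the GENCODE 29 transcript (GRCh38) with mismatches between the members of a pair in capitals. RPL41P2 (chr15:28315651-28316059, plus strand) is identical to RPL41 over all 78 coding bases, and it had 22329 counts in U251T and 157 in U251P.
RPL41: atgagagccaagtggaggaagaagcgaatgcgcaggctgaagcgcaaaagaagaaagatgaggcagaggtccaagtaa
RPL41P2: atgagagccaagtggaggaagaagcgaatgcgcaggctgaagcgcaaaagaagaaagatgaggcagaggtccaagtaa
RPL39 and its pseudogene RPL39P5 differ at 7 of 156 coding bases.
RPL39: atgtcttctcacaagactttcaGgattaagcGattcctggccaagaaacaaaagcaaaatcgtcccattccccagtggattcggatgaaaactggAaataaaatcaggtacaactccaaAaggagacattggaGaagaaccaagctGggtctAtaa
RPL39P5: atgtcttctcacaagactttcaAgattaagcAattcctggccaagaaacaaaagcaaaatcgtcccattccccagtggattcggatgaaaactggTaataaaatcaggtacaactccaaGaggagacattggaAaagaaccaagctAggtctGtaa
RPL10, which sits near the peptidyl transferase centre, and RPL10P15 (chr19:9820141-9820455, plus strand) differ at 3 of the last 90 aligned coding bases, numbered 553 to 642 from the start codon. RPL10P15 aligned over 315 of the 645 coding bases (48.8%), so that it is not among the 60 pairs above. It had 8562 counts in U251T and 2 in U251P.
RPL10: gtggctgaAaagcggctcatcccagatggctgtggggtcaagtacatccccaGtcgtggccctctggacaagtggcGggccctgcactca
RPL10P15: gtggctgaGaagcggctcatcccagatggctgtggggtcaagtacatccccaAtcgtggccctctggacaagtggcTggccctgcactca
RPS19 and RPS19P3 (chr14:34568689-34569129, minus strand) differ at 5 of the last 90 coding bases, numbered 349 to 438. RPS19P3 had 4921 counts in U251T and 133 in U251P.
RPS19: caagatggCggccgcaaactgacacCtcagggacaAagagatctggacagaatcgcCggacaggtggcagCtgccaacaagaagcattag
RPS19P3: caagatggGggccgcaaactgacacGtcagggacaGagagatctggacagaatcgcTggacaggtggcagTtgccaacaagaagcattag

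The order of the members differed between the lines. In U251T vehicle 8 members lay above 1000 CPM, 42 between 100 and 1000 CPM and 28 below 100 CPM, of which 10 lay below 10 CPM, and the median was 245 CPM. The 5 most abundant took 29.4% of the member counts. RPL23, a large-subunit protein that can bind MDM2, led with 2109, 2448 and 2111 CPM, followed by RPL37, a zinc-binding protein, with 1786, 2815 and 1984 CPM and RPL34 with 2010, 2169 and 2047 CPM. These 3 overlapped, while RPS6, the first in U251P, ranked ninth with 993, 933 and 956 CPM. Across the 78 members Spearman's rho between the mean vehicle levels of the lines was 0.54, and between vehicle and carmofur it was 0.997 within U251P and 0.995 within U251T. Members are not independent replicates, and these coefficients are descriptions.

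**Figure D3:**
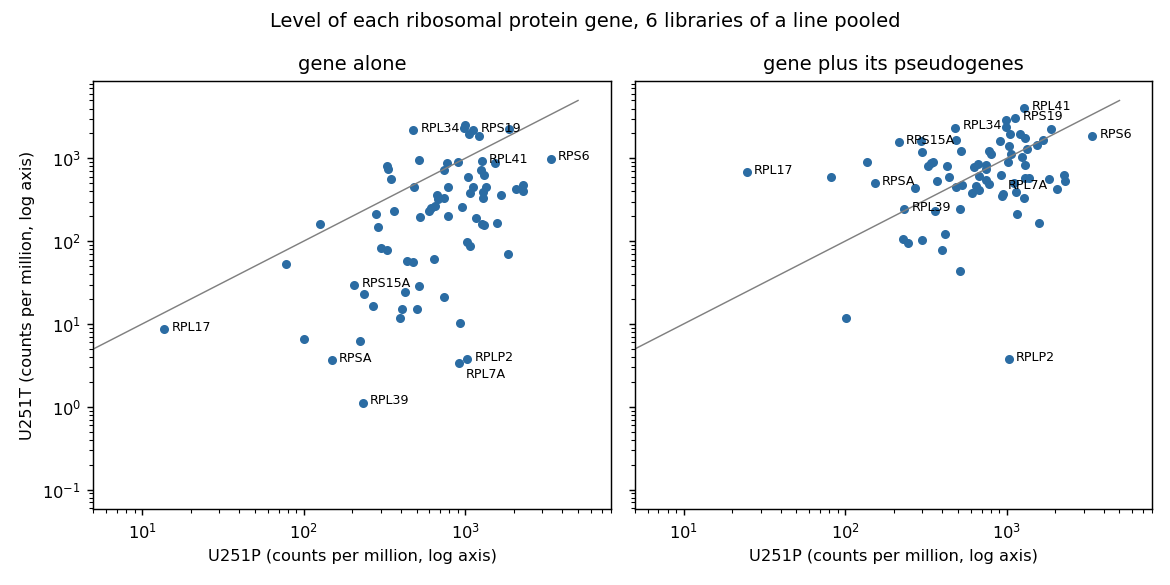
Each point is a member (74 plotted), placed by its level in U251P (x axis) and U251T (y axis) in CPM on log axes, with the 6 libraries of a line pooled and the line of equality in grey. On the left only the gene itself is counted and RPLP2, RPL7A, RPL39 and RPSA lie far below the line, while on the right, with pseudogenes added, RPLP2 stays far below and the other 3 move close to it or above it.

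When U251T was compared with U251P in vehicle, 61 of the 78 members were called lower and 12 higher (73 members, 93.6%, edgeR). The background was high, as 86.9% of the 12047 genes tested were called, 47.6% lower and 39.3% higher. The median log2 fold change of the members was -1.75, while that of all genes was -0.33. Of the 78 members 9 passed the filter in U251P and not in U251T, so that they entered the comparison through the line where they are high. With at least 10 counts in every library, 56 of 66 members were lower and 5 higher, with a median of -2.06 against 0.01 over all genes. With the size factors of DESeq2 the all-gene median moved to -0.45 and the call counts to 62 lower and 10 higher. The share of all genes called is not given for either alternative. The main fit and these alternatives count only reads assigned to the gene itself, and values with pseudogenes added are given below. Fewer cells of a type and less RNA per cell cannot be told apart in such bulk libraries, and the part of read assignment was not tested.

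RPLP2, RPL7A, RPL39 and RPL12 were among the members with the deepest differences. RPLP2 had 1081, 1043 and 970 CPM in U251P vehicle and 5.38, 0.355 and 0 CPM in U251T vehicle, which stood on 7, 1 and 0 counts. RPLP2, RPL7A and RPL39 passed the filter on low counts through the U251P libraries alone, so that a difference had to follow, and fitted values over so few counts depend on the settings. For RPLP2 the fitted log2 fold change was -9.20, between -11.59 and -8.25 over 14 alternatives, and with pseudogenes added it was -9.23, since RPLP2 has 1 annotated pseudogene and it held no U251T counts. RPL7A, a large-subunit protein, had 1038, 917 and 772 CPM against 3.08, 0.710 and 5.30 CPM. Its fitted log2 fold change of -8.84 moved to -0.70 (SE 0.185) with its 80 pseudogenes added. RPL39 moved in the same way, from a fitted -8.05 over 1, 2 and 1 counts to -0.17 (SE 0.162, adjusted p = 0.321), and RPL12 from -6.85 (SE 0.213) to -1.73 (SE 0.193). RPS20, a protein in the head of the small subunit, moved from -5.29 to -0.68.

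The members called higher included RPL11, RPL14, RPL23, RPL24, RPL28, RPL34, RPL37, RPS3A, RPS14, RPS19 and RPS27. RPL34 differed most, with 536, 455 and 436 CPM in U251P vehicle and 2010, 2169 and 2047 CPM in U251T vehicle (log2 fold change 2.08, SE 0.150, adjusted p = 1.78e-13). RPL28 had a log2 fold change of 1.16 (SE 0.145), RPL23 of 1.11 (SE 0.150), RPL37 of 1.08 (SE 0.170) and RPS27, a small-subunit zinc-finger protein, of 0.94 (SE 0.136). These 5 were called higher in all 15 alternatives to this fit. RPL15, RPL18, RPL27A, RPL35 and RPS10 were not called in either direction.

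Counting each member together with its pseudogenes gave 24 members higher and 35 lower, with a median of -0.25 against -0.48 over all genes. The share of all genes called in that fit is not given here, so that these counts have no background beside them. Of the 61 members lower on their own counts, 35 stayed lower, 9 became higher and 17 were not called, and the 12 that were higher remained so. The number of members lower by more than 3 on the log2 scale went from 25 to 4, and the number within 1 of 0 went from 22 to 36. RPL4, which lines the exit tunnel, stayed lower (-3.60, SE 0.196), as did RPS28 (-3.37, SE 0.201), a small-subunit protein at the mRNA exit. RPL17 went from -0.73 (SE 0.321) to 4.62 (SE 0.193) and RPL10 from -1.04 (SE 0.148) to 2.21 (SE 0.211). Of the pseudogenes 48 passed the filter on low counts within U251P and 257 within U251T, so that most entered through the line where they are high and no count of calls is given. The rank agreement of the lines across members was not closer with pseudogenes added (Spearman's rho 0.338) than without them, where it was 0.545 on the same pooled counts.

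Carmofur changed few members in U251T. Of the 69 members that passed the filter on low counts there, 2 were called higher and 0 lower (2.90%), while 17.1% of the 7204 genes tested were called, 8.88% higher and 8.2% lower. Without vehicle replicate 2 the number higher was 3, with RPL37 added, without carmofur replicate 2 it was 2 (RPS19 and RPS20), and without any of the other 4 libraries it was 1 (RPS19). With the replicate number as a block, RPS19, RPL26, RPS2, RPL37, RPS27 and RPL23A were called higher and RPL5, RPL8 and RPL10A lower. The share of all genes called with the block is not given here, so that these calls have no background beside them. The 9 members that passed only in U251P included RPL7A, RPL17, RPL22, RPL29, RPL39, RPLP2, RPS4Y1 and RPSA. At an unadjusted p under 0.05 there were 6 members, where 29.9% of all genes were. The median log2 fold change was 0.08 against 0.01 over all genes, with 45 members above 0 and 24 below, where 49% of all genes lay below 0. Groups did not overlap for 7 members higher after carmofur and 2 lower, and for 32.9% of all genes (16.1% higher and 16.7% lower).

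RPS19, a small-subunit protein needed for the maturation of the small ribosomal RNA and the gene most often mutated in Diamond-Blackfan anaemia, rose. It had 1976, 1888 and 1843 CPM in U251T vehicle and 2791, 2714 and 3058 CPM after carmofur, so that every carmofur library lay above every vehicle library. The log2 fold change was 0.58 (SE 0.114, adjusted p = 0.00159, edgeR), and it was called in all 15 alternatives, with values from 0.50 to 0.60 and adjusted p from 1.69e-14 to 0.028. Its pseudogenes were higher as well, at 700, 734 and 751 CPM in vehicle and 983, 1138 and 1069 CPM after carmofur. RPS19P3 rose by 0.47 (SE 0.127, adjusted p = 0.0154) and RPS19P1 by 0.83 (SE 0.192, adjusted p = 0.00531), and reads of these loci and of RPS19 may be shared, so that they are no separate observation. The sum of gene and pseudogenes rose by 0.57 (SE 0.111, adjusted p = 0.00147). In U251P RPS19 had 1179, 1057 and 1070 CPM in vehicle and 1217, 1061 and 1107 CPM after carmofur, with a log2 fold change of 0.06 (SE 0.0905, adjusted p = 0.999).

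RPL26, a large-subunit protein that also binds the p53 mRNA, had 421, 410 and 401 CPM in U251T vehicle and 562, 520 and 542 CPM after carmofur. Its groups did not overlap, and the log2 fold change was 0.39 (SE 0.125, adjusted p = 0.0379). The call was less stable than that of RPS19. It held in 6 of 15 alternatives, with values from 0.31 to 0.41 and adjusted p from 0.000681 to 0.323, and it was lost without vehicle replicate 1 (adjusted p = 0.128), vehicle replicate 3 (0.118), carmofur replicate 1 (0.138), carmofur replicate 2 (0.0800) or carmofur replicate 3 (0.0797), as well as with DESeq2 (0.0518), with pseudogenes added (0.0525), with all 12 libraries in 1 fit (0.221) and without a filter (0.323).

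RPS2, at the entry of the mRNA channel, had 76.9, 78.4 and 77.7 CPM in U251T vehicle and 100, 100 and 151 CPM after carmofur (log2 fold change 0.53, SE 0.197, adjusted p = 0.0736). Carmofur replicate 3 was well above the other libraries, and without it the log2 fold change was 0.36 (adjusted p = 0.256). With pseudogenes added RPS2 passed the test (0.43, SE 0.132, adjusted p = 0.0304). RPL10A had 254, 249 and 240 CPM in vehicle and 192, 208 and 172 CPM after carmofur (-0.37, SE 0.145, adjusted p = 0.0873), and it also passed with pseudogenes added (-0.53, SE 0.142, adjusted p = 0.0151). RPL23A, a protein at the exit tunnel, had 128, 154 and 147 CPM in vehicle and 185, 193 and 190 CPM after carmofur (0.39, SE 0.156, adjusted p = 0.0945). With pseudogenes added, which held 90.8% of its family counts in U251T, the value was 0.23 (SE 0.114, adjusted p = 0.175). RPS27 had 656, 699 and 740 CPM and then 874, 885 and 785 CPM (0.28, SE 0.124, adjusted p = 0.135), and with pseudogenes added the value was 0.23 (SE 0.122, adjusted p = 0.213). On their own counts the groups of RPL23A and RPS27 did not overlap.

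Among the members of other roles, RPL5 had 630, 659 and 648 CPM in U251T vehicle and 624, 569 and 443 CPM after carmofur (-0.24, SE 0.139, adjusted p = 0.274). RPL11 had 1815, 2029 and 1708 CPM and then 1893, 2188 and 1647 CPM. RPS6 had 1052, 1091 and 1048 CPM after carmofur, all above its vehicle values (0.14, SE 0.117, adjusted p = 0.459). RPL3 had 23.1, 25.6 and 30.0 CPM in vehicle and 18.6, 13.9 and 26.1 CPM after carmofur, and the groups overlapped.

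**Figure D4:**
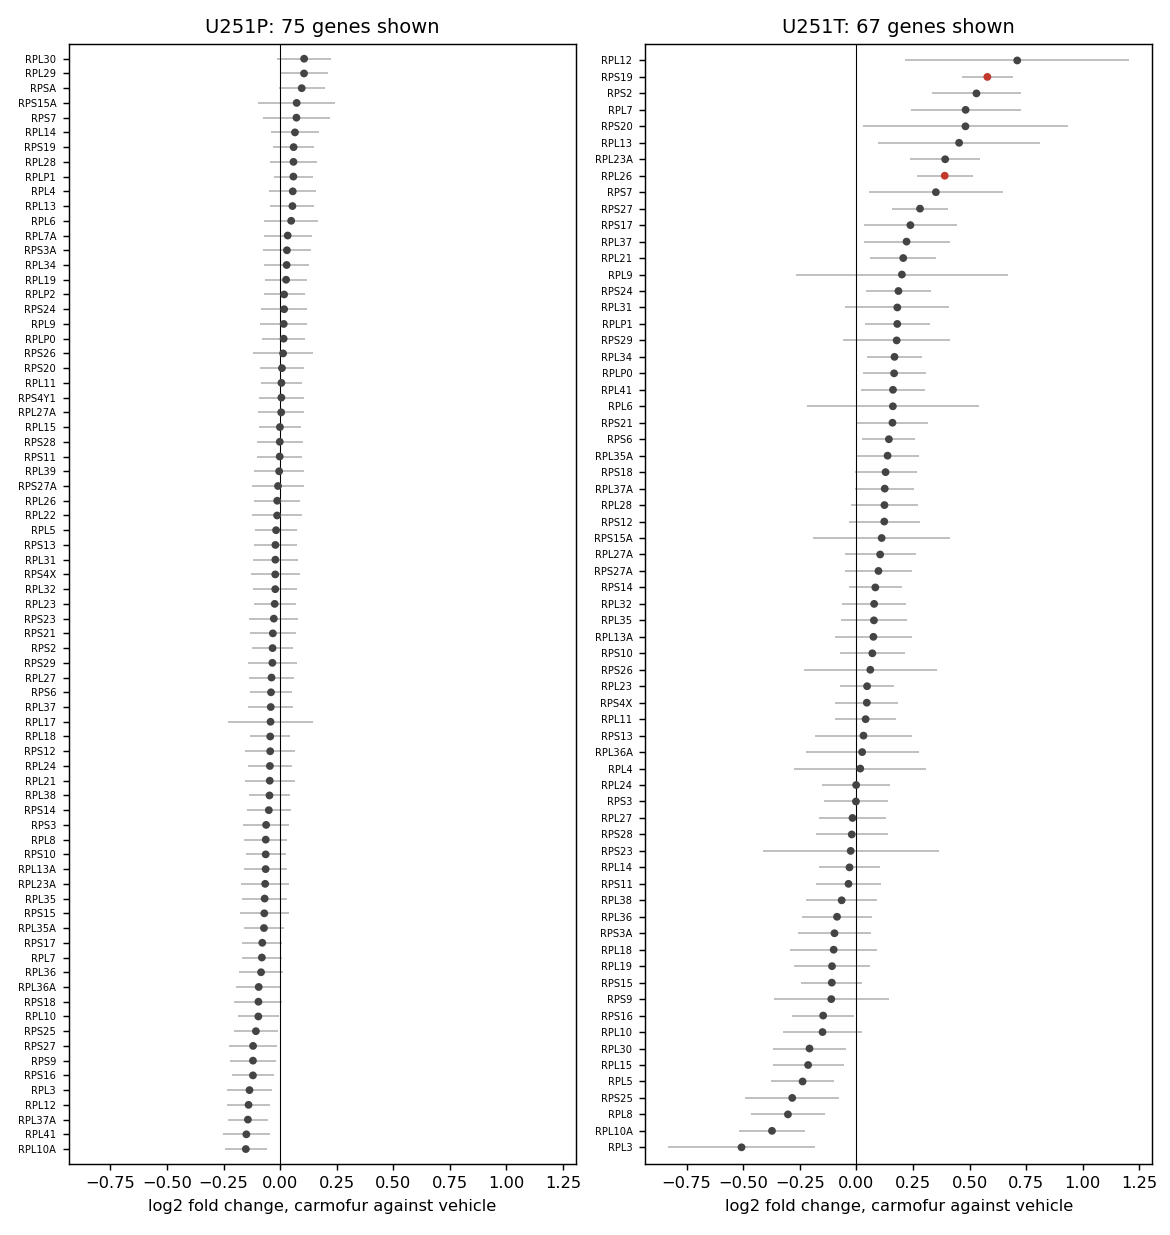
Log2 fold change of carmofur against vehicle for 75 members tested in U251P and 67 in U251T, sorted within each line, with bars of 1 standard error and members at an adjusted p under 0.05 in red. The U251P values lie between -0.15 and 0.11 with none in red, and RPS19 and RPL26 are the red points in U251T.

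Carmofur replicate 3, the U251T library with the fewest counts, stood apart for the members that were nearly absent in U251T. The 10 members below 10 CPM in U251T vehicle summed to 154 CPM in that library, 3.89% of their mean sum in U251P vehicle, and to 26.5 to 65.3 CPM (0.671% to 1.65%) in the other 5 U251T libraries. Of the 10 members, 8 were highest in it, and of all 78 members 22 were. The 10 were chosen by low levels in the vehicle libraries, so that those libraries had to be low. In so shallow a library 1 count is 2.61 CPM, and RPS4Y1 was highest in it on 1 count. The share of all genes highest in it is not given here. The genes of the mitochondrial genome also held their largest U251T share in it (0.881%). RPLP2 had 10 counts there (26.1 CPM), against 4 and 5 counts in the other carmofur libraries, and RPL7A had 11 counts (28.7 CPM) against 4 and 0.

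The carmofur effect did not pass the test of a difference between the lines for any member. In the fit of all 12 libraries 0 of 78 members were called for the interaction of line and carmofur, where 4.28% of 13070 genes were, and 2 members had an unadjusted p under 0.05, as did 15.1% of all genes. RPLP2 had an effect higher by 2.05 in U251T (SE 0.738, adjusted p = 0.124), which stood on the few counts just given. Without U251T vehicle replicate 1 that value was 4.43 (adjusted p = 0.00841), without vehicle replicate 2 it was 1.06 (adjusted p = 0.605), and without carmofur replicate 3 it was 1.22 (adjusted p = 0.576), within a range of adjusted p from 0.00841 to 0.605 over 19 alternatives. RPS19 had an effect higher by 0.45 (SE 0.221, adjusted p = 0.324, edgeR). For RPS19 the adjusted p ran from 0.000242 to 0.517 over 20 alternatives and passed in 2 of them, and DESeq2 called RPS19 (0.53, adjusted p = 0.000242) and RPS2 (0.54, adjusted p = 0.0439). RPS2 otherwise had an interaction of 0.48 (SE 0.243, adjusted p = 0.35).

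**Figure D5:**
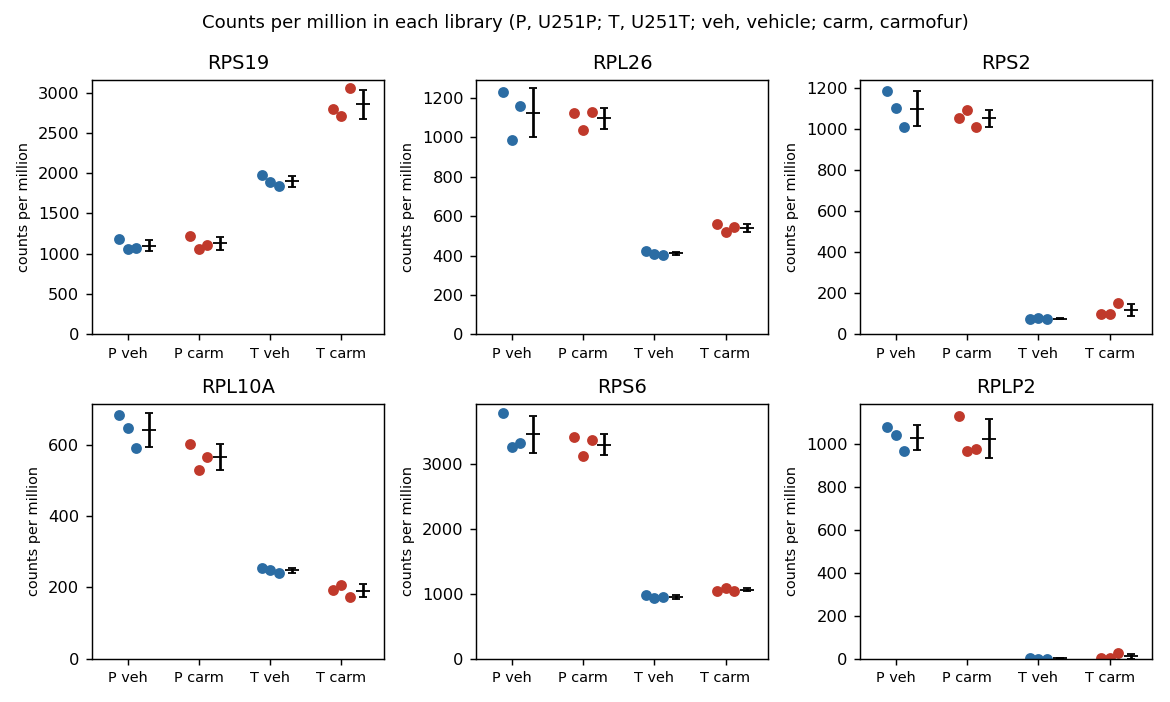
CPM in each library for RPS19, RPL26, RPS2, RPL10A, RPS6 and RPLP2, with vehicle in blue, carmofur in red, and the mean with its SD (n = 3) in black beside each group. RPS19 lies at 1843 to 1976 in U251T vehicle and at 2714 to 3058 after carmofur, while its U251P groups overlap.

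The remaining cytosolic ribosomal proteins and the close paralogs gave a further view of the family. FAU, which encodes a ribosomal protein fused to a ubiquitin-like sequence, and RACK1, the scaffold on the small subunit, were not called in either line after carmofur. Of 6 tested paralogs left out by the rule, 1 rose and 2 fell in U251T, and 0 of 6 were called in U251P. RPL22L1, the paralog of RPL22, fell from 230, 247 and 226 CPM in U251T vehicle to 58.8, 33.4 and 33.9 CPM after carmofur, with no overlap (log2 fold change -2.45, SE 0.207, adjusted p = 2.77e-07). In U251P it had 113, 106 and 66.7 CPM and then 106, 96.4 and 68.3 CPM, and the difference between the lines passed the test (-2.47, SE 0.304, adjusted p = 9.19e-07). RPL22 itself had 12, 15 and 3 counts in the U251T vehicle libraries and 6, 6 and 2 in the carmofur libraries, too few for the test. RPS27L, a paralog of RPS27 known as a p53 target, rose in U251T (0.41, SE 0.133, adjusted p = 0.039), and RPL3L, a paralog best known from muscle, fell (-0.61, SE 0.196, adjusted p = 0.0387). RPL3L and RPL10L had 0 counts in all 6 U251P libraries and 80.4 to 158 CPM and 20.9 to 50.4 CPM in U251T.

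Other genes of ribosome production were called in U251T at shares on either side of the 17.1% background. Among 28 tested ribosome biogenesis factors 7 fell and 0 rose (25%), with a median log2 fold change of -0.38. They included UBTF, a factor of RNA polymerase I (-0.97, SE 0.198, adjusted p = 0.00213), NOP58, a core protein of box C/D snoRNPs (-0.76, SE 0.154, adjusted p = 0.0021), and GNL3, or nucleostemin (-0.62, SE 0.139, adjusted p = 0.00428). Among 42 mitochondrial ribosomal proteins 1 fell, MRPL22 (-1.28, SE 0.266, adjusted p = 0.00253). Of 19 translation factors whose mRNAs also carry TOP motifs 1 rose, EIF4A2 (0.47, SE 0.157, adjusted p = 0.0483), and 1 fell, the histone chaperone NAP1L1 (-0.86, SE 0.125, adjusted p = 9.11e-05). Of 18 initiation factors 1 fell. Of the 12 snoRNA host genes 2 could be tested, and neither was called. In U251P 0 genes of these lists were called after carmofur, where the background was 0%. The filter on low counts passed all 12 snoRNA host genes in U251P against 2 in U251T, and 77 mitochondrial ribosomal protein genes against 42.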

How the data were processed

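3′ RNA-seq libraries (QuantSeq FWD) of 12 samples were analysed. The deposited values are whole-number counts per Ensembl gene identifier, made by the authors without normalization. The labels name hg38, and the aligner settings, the strand setting and the treatment of reads that match several loci are not given in the sources used here. Symbols came from a gene name table and positions and gene types from GENCODE 29 (GRCh38). Levels are CPM, computed over a library's gene counts. Each comparison was fitted on the whole table with the edgeR (version 4.0.16) quasi-likelihood test in R (version 4.3.3), with TMM normalization, filterByExpr and Benjamini-Hochberg adjustment, called under 0.05. Carmofur was tested within each line (6 libraries), the lines in vehicle (6), and the interaction over all 12. Alternatives were DESeq2 (version 1.42.0), other scalings, other count filters (none, or at least 10 counts in every library), an adjusted p under 0.1, a replicate block, all libraries in 1 fit, pseudogenes summed with their parent gene, and each library left out. The fit was tested on simulated data. Alignments used Biopython (version 1.88), tables pandas (version 2.3.3) and plots matplotlib (version 3.10.9), all under Python 3.11.15.

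The members and lists were chosen with earlier results of these data known. Genes were named if they were among the 5 members in each direction with the smallest p in a comparison, the 5 most or least abundant in U251P vehicle, a fixed set by role, the 5 with the largest pseudogene share in each line, or members whose groups did not overlap at an unadjusted p under 0.05. From other lists they were the 3 in each direction with the smallest p, or all of a list of up to 10 genes. Other members were named after their values were seen. Some genes are not reported here by name, and the plots leave out their values, while counts over the members include them.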

Additional observations from a re-analysis of the deposited data

How the results depend on the processing

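With 3 libraries a group and 383633 counts in the shallowest U251T library, carmofur effects on members with few U251T counts were not detectable. Total counts did not overlap between the lines, and the part of depth in the line differences was not tested. The vehicle libraries nearest in depth, both replicate 2, had 3295045 counts in U251P and 2817379 in U251T. They held 219404 and 109073 counts on members and 1584 and 100772 on pseudogenes of the members. Of the comparisons with an alternative, 420 values of named genes kept their direction and side of the threshold. A further 12 gene values became significant, 10 lost significance and 2 reversed. Of the summary values 192 stayed close to the main value and 35 moved. For a count of members, close allowed a limited ratio, so that 2 against 3 was not a move. Shares of all genes called are given for the main fits alone, so that counts of members under the alternatives have no background beside them. For carmofur in U251T the number of members higher (2) was 4 at an adjusted p under 0.1, 1 with DESeq2, 1 without a filter, 1 with all 12 libraries in 1 fit, and 1 to 3 without single libraries, and the number lower (0) was 1 at an adjusted p under 0.1 and 1 with pseudogenes. For the lines in vehicle the median (-1.75) was -1.87 with DESeq2 and with its size factors in edgeR, -2.12 without a filter, -2.06 with at least 10 counts in every library, -1.91 with all libraries in 1 fit, -0.25 with pseudogenes, and -1.93 to -1.73 without single libraries. Members higher (12) were 5 with at least 10 counts in every library and 24 with pseudogenes, and members lower (61) were 35 with pseudogenes. For the interaction, members higher (0) were 2 with DESeq2, 1 without a filter, and 0 to 1 without single libraries. With mitochondrial genes left out of the total the member share was 8.63% and 8.52% in U251P vehicle and carmofur. Of all counts, members and pseudogenes together held 6.87% and 7.44% in U251T vehicle and carmofur. With both changes, an alternative chosen after seeing the data, the shares were 8.69% and 8.59% in U251P and 6.89% and 7.49% in U251T, where the lines no longer overlapped. RPL30 in U251P ran from -0.0097 (without vehicle replicate 3) to 0.20 without single libraries, and RPL29 in the interaction from -1.38 to 0.13 (without U251T vehicle replicate 1). Except where a setting by construction adds pseudogenes or removes genes or libraries, the cause was not tested.

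The main fits did not treat the replicate numbers as pairs, and the labels do not say which cultures the libraries came from. In their deviations from group means, same-numbered libraries correlated at 0.214, -0.033 and 0.269 in U251P and at 0.085, 0.342 and 0.082 in U251T. Differently numbered libraries correlated at -0.285 to 0.088 and at -0.191 to 0.107. The fitted coefficient of variation between libraries was 0.124 in U251P and 0.154 in U251T. With a replicate block it was 0.0944 and 0.0948, and between the lines it went from 0.140 to 0.144. Whether the numbers mark matched cultures was not tested. With a replicate block 6 members were higher and 3 lower after carmofur in U251T (RPS19, RPL26, RPS2, RPL37, RPS27 and RPL23A higher, RPL5, RPL8 and RPL10A lower), and 2 were higher in the interaction (RPS19 and RPLP2). The shares of all genes called with the block are not given here, so that these counts are not read against a background.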
